A study of Mus musculus with 6 samples.

Results

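Apolipoproteins are the proteins that wrap lipids into particles for transport in blood, and most of them are made by hepatocytes. Apolipoprotein B is the structural protein of very low density lipoprotein (VLDL) and its remnants. Apolipoproteins A-I, A-II and M travel mainly with high density lipoprotein (HDL), and the A-IV, A-V and C apolipoproteins adjust how fast triglyceride is stored, released and cleared. Apolipoprotein E is the ligand by which the liver takes up remnants, so mice without it build up cholesterol-rich particles and develop atherosclerosis.

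The 10 genes described are Apoa1, Apoa2, Apoa4, Apoa5, Apob, Apoc1, Apoc3, Apoe, Apoh and Apom. They were found as the probes, other than controls, whose accession maps in RefSeq to one of these mouse symbols, and they are 10 of 20659 features tested. The 10 genes had 12 probes on 30 spots of each array, and every one of these probes was well above background in both diets in all 4 pool pairs. Squalene-fed livers came from 10 male Apoe-deficient mice on the C57BL/6J background that ate, for 11 weeks, a purified Western diet (0.15% cholesterol, 20% palm oil) with 1% squalene, which the labels equate to 1 g/kg of mouse. The Western livers came from 9 male mice of the same genotype on that diet without squalene, so both groups were Apoe-deficient and no array carried wild-type liver. RNA of 2 or 3 animals was joined into each pool, 4 pools a diet, and every dual-colour array carried 1 squalene pool (pools 5 to 8) against 1 Western pool (pools 1 to 4). Squalene RNA was in Cy5 in pairs 1 and 4 and in Cy3 in pairs 2 and 3. The labels name neither the Apoe allele nor the age of the mice. The limma p-values rest on the spread between pool pairs left after a term for dye orientation, and not on spread between single animals.

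A ratio below is the log2 of squalene over Western within a pool pair, and a level is the log2 intensity of a pool in its own channel. Levels of different probes cannot be set against each other. The same livers expressed the defining hepatocyte genes, with 7 of 8 listed markers measured, while 3 of 5 small intestine markers (Vil1, Lct and Alpi) did not pass the filter on dim probes and Fabp2 was the only one measured. Markers of red cells (median ratio -0.48, 6 of 6 with a mean below 0) and of stellate cells and fibroblasts (median -0.29, 7 of 8) averaged lower in squalene livers, where 48.2% of all features had a mean below 0. In red cells this came from Hba-a1, Hba-a2, Hbb-bt and Hbb-bs (-0.47 to -0.54), with Alas2 at -0.054 and Slc4a1 at -0.021. At an unadjusted limma p under 0.05, 3 red cell and 4 stellate markers were lower (1.42% of all features), and 0 passed an adjusted one. Endothelial (median -0.049, 7 of 7 below 0) and bile duct markers (-0.067, 3 of 3) lay closer to 0. The pair medians, in pairs 1 to 4, were 0.0082, -0.54, -1.62 and 0.14 for red cells and 0.10, -0.81, -0.50 and 0.12 for stellate cells and fibroblasts, so only pairs 2 and 3, with squalene in Cy3, were below 0. Their part in the ratios below was not tested. Pairs 1 and 2 were hybridised on 2 arrays each, 1 on each of the 2 slides, and repeat arrays correlated across features at r = 0.847 and r = 0.879. Across all features the median SD between pool pairs was 0.162 and the median absolute mean ratio 0.0431.

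Of the 10 genes, 4 lie side by side on chromosome 9 in the order Apoa1, Apoc3, Apoa4 and Apoa5, and Apoc1 and Apoe are neighbours on chromosome 7. The sequence just upstream of Apoa4, the gene with the highest ratio, is shown with that of Apoa1 from the same cluster. Both are the 250 bases before the gene's start on the plus strand, from RefSeq on GRCm38.p6, at chr9:46240594-46240843 for Apoa4 and chr9:46228380-46228629 for Apoa1. Capitals mark matches to the motifs searched.
Apoa4: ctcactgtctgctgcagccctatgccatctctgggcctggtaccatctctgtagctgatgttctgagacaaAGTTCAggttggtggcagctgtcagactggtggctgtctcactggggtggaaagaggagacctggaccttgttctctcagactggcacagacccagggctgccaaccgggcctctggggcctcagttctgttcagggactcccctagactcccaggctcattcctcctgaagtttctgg
Apoa1: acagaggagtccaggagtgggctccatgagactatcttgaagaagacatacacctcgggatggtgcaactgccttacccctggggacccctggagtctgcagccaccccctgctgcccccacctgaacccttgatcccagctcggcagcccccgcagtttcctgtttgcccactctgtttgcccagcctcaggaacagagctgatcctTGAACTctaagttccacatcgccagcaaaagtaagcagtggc
The motifs, searched on both strands, were the nuclear receptor core AGGTCA (in 14.02% of 32851 promoter windows of this length), its variant AGTTCA (11.84%), the direct repeat of AGGTCA with any 1 base between its copies (0.03%), the HNF4 motif CAAAGTCCA (0.38%) and the TATA box TATAAA (12.37%). The direct repeat contains the core motif, and AGTTCA was added after these windows had been read. Apoa4 and Apoa1 each held 1 match, to AGTTCA, beginning 179 and 42 bases before the start, and neither held TATAAA. Of the 10 genes, 8 had a window in the table, and Apoa2, Apoa5 and Apoe had several. Counting a match in any window, TATAAA was found for Apoa2, Apoa5, Apob and Apoe, and AGGTCA for Apoa2 and Apoh, while the shares above are per window. TATAAA began 212 bases before the start for Apoa2, 31 or 56 for Apoa5, 60 for Apob, and 96 and 100 (opposite strands) for Apoe. The 2 motifs of Apoa2 lay in different windows, and the other Apoe windows held no match.

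The comparison concerns what added squalene does to liver transcripts in mice on this diet. Of the 10 apolipoprotein genes, Apoa4 had the highest mean and Apoe the lowest, and the other 8 had means between -0.12 and 0.22. Without pair 2 the fitted ratio of Apoa5, at -0.210, was below that of Apoe, at -0.196. After Benjamini-Hochberg adjustment of limma's p-values over all 20659 features, 0 of 10 were under 0.05 (0% of all features were), and the adjusted p was 0.9999 for each. At an unadjusted p under 0.05 there was 1 gene higher, Apoa4, where 1.05% of all features were, and 1 lower, Apoe, where 1.42% were, in all 2 of 10 against 2.47%. All 4 pairs had a positive ratio for 1 of 10, again Apoa4 (3.34% of all features), and all 4 a negative one for 1 of 10, again Apoe (3.04%). The median of the 10 means was 0.046, beside 0.0028 over all features. In bulk liver, fewer cells of a type and less RNA per cell cannot be told apart.

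**Figure D1:**
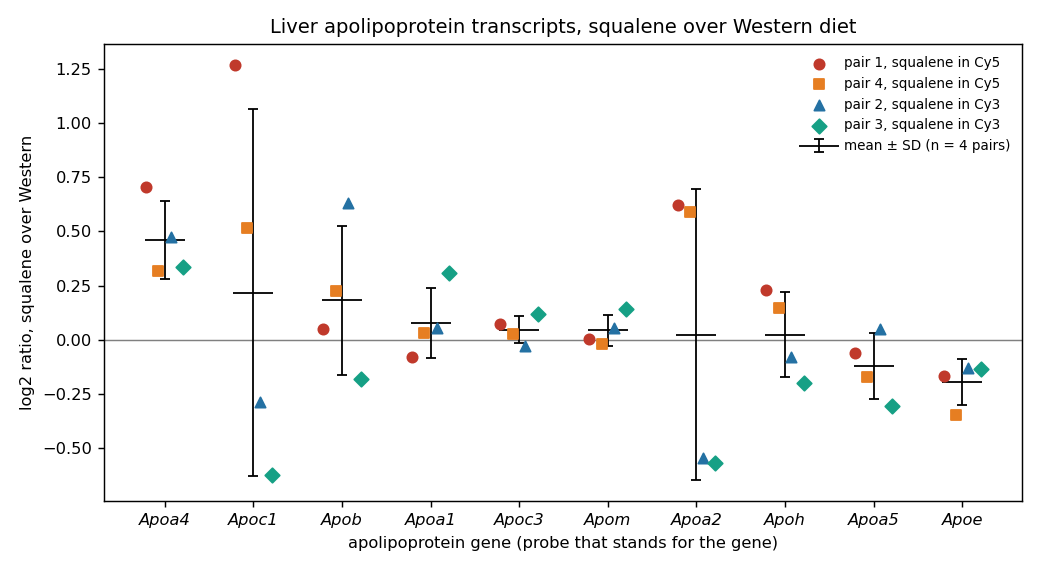
Log2 ratio of squalene over Western (y axis) for each of the 10 apolipoprotein genes (x axis), with 1 point per pool pair and the mean ± SD over 4 pairs. All 4 points lie above 0 for Apoa4 and below 0 for Apoe, and Apoa2 and Apoc1 split by the dye that carried squalene.

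Apoe is the gene that these mice lack in function, so it is given before the others. Its probe, printed at 10 spots of each array, gave a median signal 37.7 to 86.0 times the local background in the squalene channels and 44.6 to 126 times in the Western channels. The transcript was therefore measured on all 6 arrays in both diets. No source used here gives where the probe lies relative to the disrupted part of the gene, so this signal checks neither the genotype nor the protein.

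**Figure D2:**
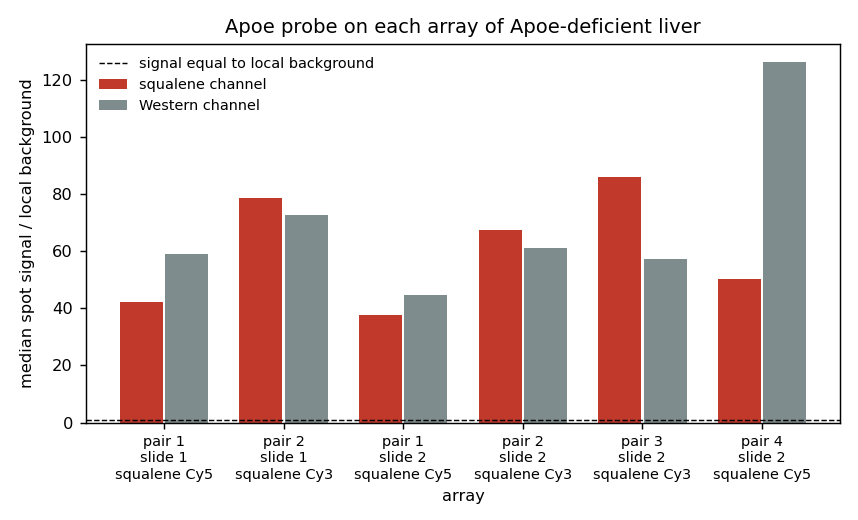
Median signal of the Apoe probe divided by its local background (y axis) on each of the 6 arrays (x axis), for the squalene and the Western channel. Bars run from 37.7 to 126, all far above 1, where signal would equal background.

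Apoe levels were 11.13, 11.79, 11.78 and 11.37 in squalene pools 5 to 8. In Western pools 1 to 4 they were 11.30, 11.92, 11.91 and 11.72. The 2 groups overlapped, but in each pair the squalene pool was the lower one. Ratios were -0.17, -0.13, -0.13 and -0.35 in pairs 1 to 4, with a mean of -0.19 ± 0.10 (SD, n = 4; SE 0.06), or 0.874 of the Western level. The 95% interval of the ratio was -0.35 to -0.042, and the unadjusted p by limma was 0.0222. Levels varied more between pools, with SDs of 0.32 in squalene and 0.29 in Western pools, than the ratios did between pairs (SD 0.10).

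Repeat measurement of Apoe was tight. Between 8 and 9 of its 10 spots per array were free of outlier marks, and their ratios had SDs of 0.042 to 0.074. The repeat arrays gave -0.19 and -0.15 for pair 1 and -0.12 and -0.14 for pair 2. When slide 2 alone was used, the ratio was -0.19. Leaving out pair 4, the lowest, the fit with the dye term gave -0.15. The unadjusted limma p was 0.0579 without pair 2, 0.0609 without pair 3 and 0.134 without pair 4.

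Apoe and Apoc1 are also made by macrophages, and macrophage markers averaged lower in squalene livers. Of 10 measured Kupffer cell and macrophage markers 9 had a mean below 0, as did 8 of 8 markers of lipid-associated macrophages and 48.2% of all features, with 0 of either list at an adjusted limma p under 0.05. At an unadjusted limma p under 0.05 there were 0 of the Kupffer list and 3 lower of the lipid-associated list (Gpnmb, Trem2 and Itgax), beside 1.42% of all features that were lower. Median ratios of the Kupffer list were 0.19, 0.33, -0.53 and -0.47 in pairs 1 to 4, and those of the lipid-associated list 0.26, -0.65, -0.68 and -0.18. Summed levels of the Kupffer list ran from 16.1 to 17.0 in squalene pools and from 16.2 to 16.9 in Western pools. For the lipid-associated list they ran from 13.6 to 14.4 in squalene pools and from 14.0 to 14.5 in Western pools. Apoe was below 0 in pairs 1 to 4. Both list medians were below 0 in pairs 3 and 4, both above 0 in pair 1, and of opposite sign in pair 2. The part of these cells in the Apoe and Apoc1 ratios was not tested.

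Apoa4 encodes an apolipoprotein of intestinal and hepatic triglyceride-rich particles whose liver transcript is known to follow hepatic lipid load in mice. Its levels were 11.90, 11.76, 11.84 and 11.53 in squalene pools 5 to 8, against 11.20, 11.29, 11.50 and 11.22 in Western pools 1 to 4. Every squalene pool was above every Western pool, which held for 1 of 10 members and for 0.387% of all features. The opposite order held for 0 of 10 members and 0.392% of all features. Means were 11.76 ± 0.16 in squalene and 11.30 ± 0.14 in Western pools (SD, n = 4 each). The lowest squalene pool, at 11.53, was just above the highest Western pool, at 11.50.

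Within pairs 1 to 4 the Apoa4 ratios were 0.71, 0.48, 0.33 and 0.32. The mean was 0.46 ± 0.18 (SD, n = 4; SE 0.08), a 1.37-fold higher level, with a 95% interval of 0.24 to 0.67. By limma the unadjusted p was 0.00268, rank 31 of 20659. The intestine also makes Apoa4. Levels of the 1 measured intestinal marker, Fabp2, were 14.03 to 14.09 in squalene and 14.10 to 14.15 in Western pools. Every squalene pool was thus below every Western pool for Fabp2, as for 0.392% of all features. Whether Fabp2 reads intestinal RNA here was not tested, and Vil1, Lct and Alpi did not pass the filter. The Apoa4 ratio held in both dye orientations, at 0.51 with squalene in Cy5 and 0.41 with squalene in Cy3. Repeat arrays gave 0.67 and 0.74 for pair 1 and 0.42 and 0.53 for pair 2, and slide 2 alone gave 0.48. A 2-sided exact permutation test that turns the sign of each pair gave p = 0.125 for Apoa4 and for Apoe, which is the smallest that 4 pairs allow.

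**Figure D3:**
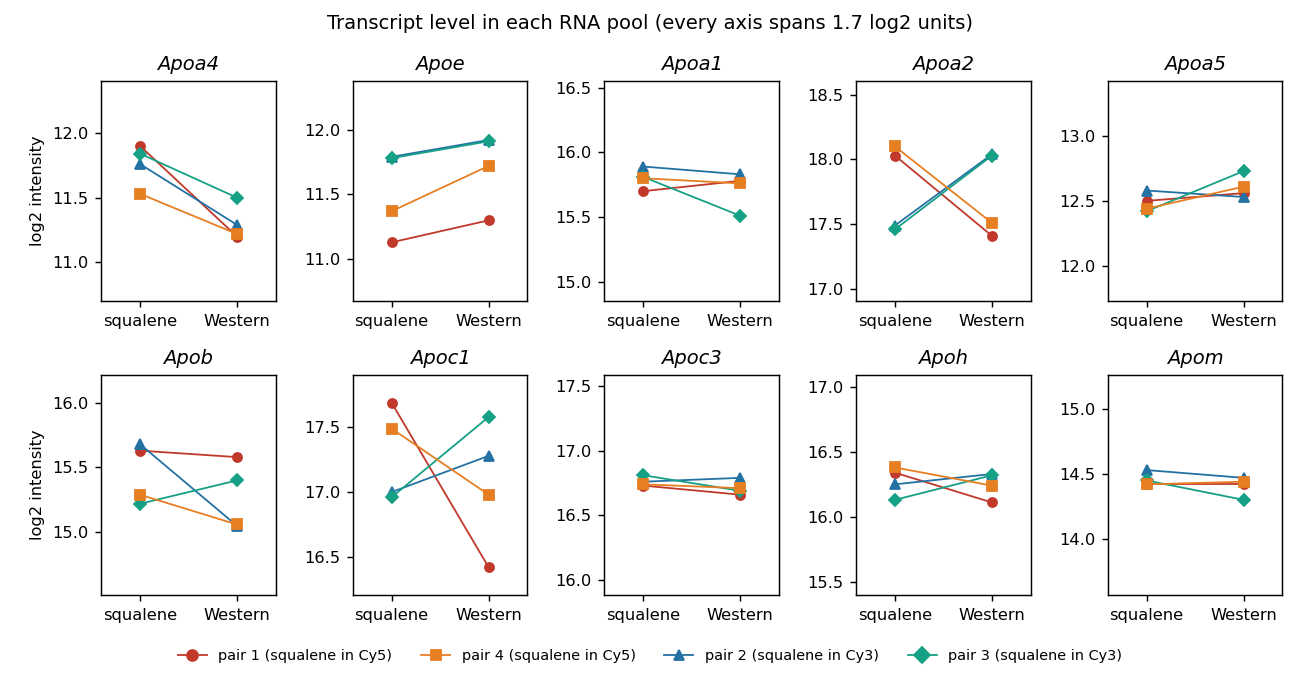
Log2 intensity (y axis) of the 10 apolipoprotein genes in each of the 8 RNA pools, squalene left and Western right, with a line joining the pools of a pair. For Apoa4 every squalene point is at 11.53 or above and every Western point at 11.50 or below. For Apoe the squalene point of each pair is the lower one, and the lines of Apoa2 and Apoc1 slope opposite ways in the 2 dye orientations.

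The neighbours of Apoa4 on chromosome 9 had ratios closer to 0, and the differences between genes were not tested. Apoc3 encodes a brake on lipoprotein lipase and on remnant uptake. Its levels were 16.73, 16.76, 16.81 and 16.74 in squalene pools and 16.66, 16.79, 16.69 and 16.71 in Western pools. Ratios of 0.07, -0.03, 0.12 and 0.03 gave a mean of 0.05 ± 0.06 (SD, n = 4), and its 95% interval, -0.10 to 0.20, lay below that of Apoa4. Apoc3 had the smallest SD between pairs of the 10 genes, and its fitted ratio was 0.010 without pair 3 and 0.085 without pair 2.

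Apoa5 encodes an activator of triglyceride clearance. It had levels of 12.50, 12.58, 12.42 and 12.44 in squalene pools and 12.56, 12.53, 12.73 and 12.61 in Western pools. Its ratios were -0.06, 0.05, -0.31 and -0.17, with a mean of -0.12 ± 0.15 (SD, n = 4) and a 95% interval of -0.32 to 0.08. The squalene pools were lower in 3 of 4 pairs, and the groups overlapped. The fit with the dye term gave -0.21 without pair 2 and -0.033 without pair 3.

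Apoa1, the main protein of HDL, was likewise spotted 10 times per array. Levels were 15.70, 15.89, 15.81 and 15.80 in squalene pools and 15.78, 15.83, 15.51 and 15.76 in Western pools. Its ratios were -0.08, 0.05, 0.31 and 0.03, so the mean of 0.08 ± 0.16 (SD, n = 4) came largely from pair 3. For Apoa1 without that pair, the fit with the dye term gave 0.016 and the plain mean of the 3 pairs left was 0.0030. In pair 3 the Western pool was the lowest of all 8. The SD among its 10 spots ran from 0.030 to 0.091 on the 6 arrays.

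The other HDL genes differed in how far their ratios spread between pairs. Apom, which carries sphingosine 1-phosphate on HDL, had levels of 14.42, 14.53, 14.45 and 14.42 in squalene pools and 14.42, 14.47, 14.30 and 14.44 in Western pools. Its ratio was 0.04 ± 0.07 (SD, n = 4), with a 95% interval of -0.09 to 0.18, and its fitted ratio was 0.022 without pair 3 and 0.067 without pair 2. Apoa2, the other abundant HDL protein, had 2 probes, and both split by dye orientation. The brighter probe had levels of 18.03, 17.49, 17.46 and 18.10 in squalene pools and 17.41, 18.04, 18.03 and 17.51 in Western pools. Ratios were 0.62, -0.54, -0.57 and 0.59 for that probe in pairs 1 to 4 and 0.73, -0.67, -0.55 and 0.65 for the dimmer one.

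Apoa2 was thus higher in whichever channel was Cy5, and its mean of 0.02 ± 0.67 (SD, n = 4) is an average of opposite values. Fitted with a dye term its SE was 0.05, and without that term 0.34. The same split marked Apoc1, whose small protein activates the cholesterol-esterifying enzyme LCAT and slows remnant uptake. Apoc1 levels were 17.69, 17.00, 16.96 and 17.49 in squalene pools and 16.42, 17.28, 17.58 and 16.98 in Western pools. Its ratios were 1.27, -0.29, -0.62 and 0.51, with a mean of 0.22 ± 0.85 (SD, n = 4), and an SE of 0.14 with and 0.42 without the dye term. Without pair 1 the fit with the dye term, which weighs both orientations equally, gave 0.030 for Apoc1, while the plain mean of the 3 pairs left was -0.13. Without pair 4 these were 0.41 and 0.12.

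Repeat arrays of one pair agreed closely for these probes. Apoc1 gave 1.30 and 1.24 on the 2 arrays of pair 1 and -0.28 and -0.29 on those of pair 2. Over the 12 probes and both repeated pairs, repeat arrays differed by 0.0026 to 0.113, with a median of 0.0591. The gap between dye orientations was 1.16 and 1.30 for the Apoa2 probes, 1.35 for Apoc1 and -0.78 for the dimmer Apob probe. No pair of pools was hybridised in both orientations, so a dye effect and a difference between the pools that share an orientation cannot be told apart. Among hepatocyte markers the list median also split by orientation, at 0.49 and 0.24 in pairs 1 and 4 and -0.30 and -0.41 in pairs 2 and 3. The split was that of Alb, Ttr, Fgb, Hpx and Ahsg. Cps1 went the other way, at -0.13, 0.31, 0.71 and -0.25 in pairs 1 to 4. Hpd, at 0.03, -0.06, 0.56 and 0.12, did not split by orientation.

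**Figure D4:**
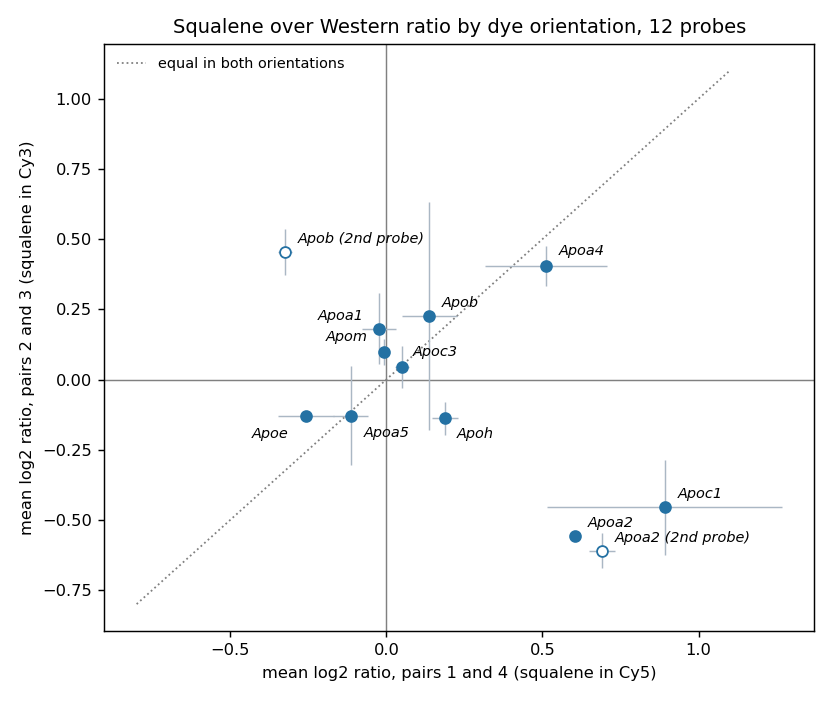
Mean log2 ratio of squalene over Western in pairs 2 and 3, with squalene in Cy3 (y axis), against that in pairs 1 and 4, with squalene in Cy5 (x axis), for 12 probes. Bars span the 2 pairs. Apoa4 lies near the dotted line of equal ratios, while Apoc1, both Apoa2 probes and the dimmer Apob probe lie far from it.

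Apob, whose protein is the scaffold of VLDL, had 2 probes that did not give the same picture. The brighter one had levels of 15.63, 15.68, 15.22 and 15.29 in squalene pools and 15.58, 15.05, 15.40 and 15.06 in Western pools. Its ratios were 0.05, 0.63, -0.18 and 0.23, a mean of 0.18 ± 0.34 (SD, n = 4). The dimmer probe read -0.35, 0.53, 0.37 and -0.30 in the same pairs, a mean of 0.06 ± 0.45 (SD, n = 4). The probes had opposite signs in pairs 1, 3 and 4 and were both high in pair 2 alone. Without pair 2 the fit with the dye term gave -0.021 for the brighter Apob probe, and the plain mean of the 3 pairs left was 0.032. Without pair 3 these were 0.38 and 0.30.

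Apoh encodes beta-2 glycoprotein I, a phospholipid-binding plasma protein. Its levels were 16.34, 16.25, 16.13 and 16.38 in squalene pools and 16.11, 16.33, 16.32 and 16.24 in Western pools. Ratios of 0.23, -0.08, -0.20 and 0.15 averaged 0.02 ± 0.20 (SD, n = 4), positive with squalene in Cy5 and negative with squalene in Cy3. The 95% interval was -0.12 to 0.17.

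Other genes of the same system were read from 3 lists, chosen with earlier results of these data known. Among the remaining apolipoproteins and Apob mRNA editing factors, 15 of 20 were measured, 10 with a mean above 0 and 5 below. The list's median was 0.067. By limma 0 passed an adjusted p of 0.05 (0% of all features did), and 0 an unadjusted p of 0.05 (2.47%). A1cf, a cofactor of Apob mRNA editing, was at 0.20 ± 0.18, and Apobec1, the editing enzyme, at -0.15 ± 0.49 (SD, n = 4). Apoc4, which lies next to Apoc1, was at 0.08 ± 0.18 (SD, n = 4). Apol7a was at -0.10 ± 0.46, Apoo, a mitochondrial apolipoprotein, at 0.10 ± 0.27, and Apol9a at 0.12 ± 0.24 (SD, n = 4). Apol9a and Apol9b are near-identical, and their probes may read each other's transcript.

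Of 28 genes of lipoprotein assembly, remodelling and uptake, 26 were measured, 14 above and 12 below 0, with a median of 0.0044. By limma 0 passed an adjusted p of 0.05 (0% of all features did). At an unadjusted p under 0.05 there were 0 higher (1.05% of all features) and 3 lower (1.42%). All 4 pairs were below 0 for 2 of the 26, Scarb1 and Pltp, as for 3.04% of all features. Scarb1, the HDL receptor, was at -0.17, -0.17, -0.20 and -0.28. Pltp, which transfers phospholipid between particles, was at -0.20, -0.09, -0.39 and -0.19. Lpl, lipoprotein lipase, was at 0.30, -0.53, -1.26 and -0.08, so its mean of -0.39 rests on pairs 2 and 3. Mttp, which loads lipid onto apolipoprotein B, was at 0.0050 ± 0.098 (SD, n = 4).

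All 31 listed transcriptional regulators of apolipoprotein genes were measured, 18 above and 13 below 0, with a median of 0.029. By limma 0 passed an adjusted p of 0.05 (0% of all features did). At an unadjusted p under 0.05 there were 0 higher (1.05% of all features) and 2 lower (1.42%). These were Nr0b2, the repressor SHP, at -0.24 ± 0.25, and Srebf2, which drives cholesterol synthesis genes, at -0.22 ± 0.20 (SD, n = 4). Nr5a2, a nuclear receptor of bile acid and HDL genes, was at 0.16 ± 0.10, and Cebpa at 0.09 ± 0.49 (SD, n = 4). Hnf4a, the main activator of the chromosome 9 cluster, was at 0.05 ± 0.44, and Creb3l3, an activator of Apoa4, at 0.015 ± 0.11 (SD, n = 4).

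The named features whose ratios over the 4 pairs lay closest to those of Apoa4 were Chordc1, Meig1, Ces2a, Cyp26a1 and Pdlim3. Their root mean square differences from Apoa4 were 0.178, 0.213, 0.22, 0.226 and 0.227 among 13311 features, against 0.484 between Apoa4 and a ratio of 0 in every pair. Chordc1, a partner of the chaperone HSP90, had ratios of 0.35, 0.48, 0.31 and 0.28. Ces2a, a carboxylesterase, had ratios of 0.42, 0.53, 0.25 and 0.63, and Cyp26a1, which breaks down retinoic acid, 0.86, 0.13, 0.10 and 0.27. Meig1 averaged 0.28 ± 0.21 and Pdlim3 0.26 ± 0.23 (SD, n = 4). Pdlim3 was at -0.029 in pair 4, and the other 4 genes were above 0 in every pair. Ratios above 0 are favoured by the choice of features close to Apoa4. The measure covers 4 pairs that share 6 arrays, and 4 values are too few to set their patterns apart from one another.

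**Figure D5:**
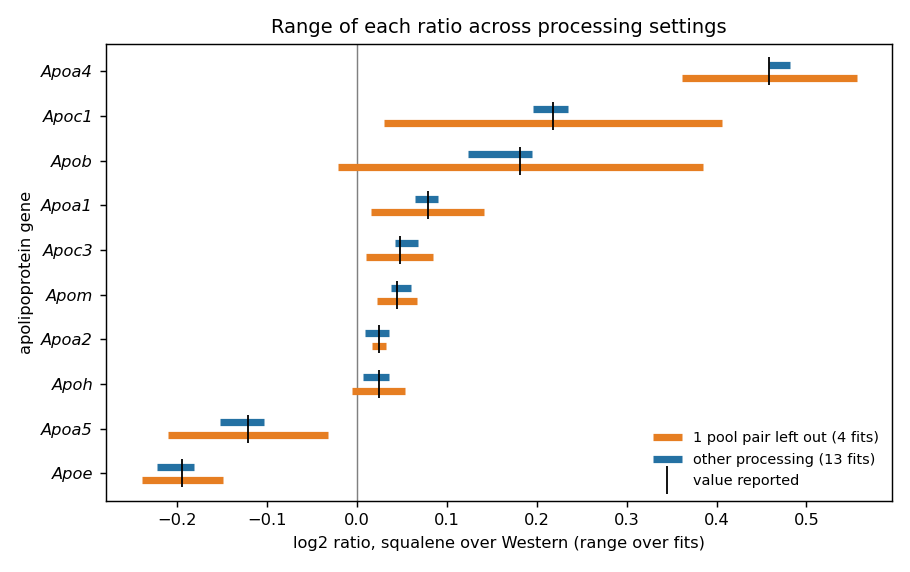
Range of each gene's log2 ratio of squalene over Western (x axis) when 1 pool pair was left out (4 fits) and under other processing (13 fits), with the reported value as a tick. Apoa4 stays between 0.36 and 0.56 and Apoe between -0.24 and -0.15, while the ranges of Apob and Apoh cross 0 when a pair is left out. Some of the other processing, such as a trended variance, cannot move a ratio.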

How the data were processed

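Spots of 6 liver arrays had been quantified by the authors in Agilent's software (version 10.7.3.1 in the headers). Each deposited file gives, for both channels, the intensity of spot and local background and a background-subtracted, dye-normalised intensity, and also a log10 ratio (red to green). A value table that the authors deposited holds log10 ratios. At 99.93% to 99.94% of spots per array these equalled, within 0.001, squalene over Western from median signals with no normalization; its column medians were 0.254 and 0.27 (pair 1), -0.217 and -0.257 (pair 2), -0.27 (pair 3) and 0.259 (pair 4).

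Here, background correction of the median signals was by normexp (offset 50), followed by loess within arrays, with controls at weight 0 and outlier spots (0.694% to 1.03% per array) left out, in R 4.3.3 with limma 3.58.1. No spot of a member was saturated. Ratios were turned to squalene over Western by the dye labels, then averaged over a probe's spots and over a pair's repeat arrays (n = 4). Kept were 26854 of 55681 probes, those well above background in at least 3 of 4 pairs in 1 diet. Each gene was read from its brightest probe, which left 20659 features, of which 13312 had a symbol from RefSeq (GRCm38.p6; 26762 probes named, and the files name an older build). limma (lmFit, eBayes) fitted squalene and a dye intercept, 2-sided, with Benjamini-Hochberg adjustment over all features, and residual and prior degrees of freedom of 2 and 3.041. The SE leaves out what the dye intercept takes up. Levels were log2 intensities after loess and Aquantile.

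The members, lists, tests and settings were chosen with earlier results of these data known. Named were all members, the 4 genes of each pathway list with the smallest unadjusted p, and the 5 features closest to Apoa4. Of these, 1 gene is not reported here. Apobec1, Apoc4, Mttp, Hnf4a, Creb3l3 and the promoter motifs were chosen after their values were seen. The fit was checked on simulated data. The number of arrays limits the precision, and nothing says whether pools share litters or cages.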

Additional observations from a re-analysis of the deposited data

How the results depend on the processing

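No apolipoprotein gene passed an adjusted p of 0.05 in limma under any of the 17 other fits (0 of 10 in each), and the lowest adjusted p was 0.185, for Apoa4, with repeat arrays kept apart and the pool pair as a random block. The number of all features past 0.05 was 0 as reported and also 0 without each pool pair in turn (0 to 0). It was 2 with median centring in place of loess, 12 with repeat arrays kept apart and 13 with the authors' deposited table, and 0 in the other 10 settings. The cause was not tested. Apoa4 ran from 0.36 to 0.56 without 1 pair and from 0.46 to 0.48 otherwise, but its unadjusted p was 0.143 by limma with a trended, robust variance. Apoe ran from -0.24 to -0.15 without 1 pair and from -0.22 to -0.18 otherwise, with an unadjusted limma p of 0.136 by the trended variance, 0.154 by median centring and 0.253 with the deposited table. Direction turned for Apob, which ran from -0.021 to 0.38, and for Apoh, from -0.0057 to 0.054, when pairs were left out, both at their lowest without pair 2. These are fits with the dye term, which weighs both orientations equally, and the plain means of the pairs left without pair 2 were above 0, at 0.032 for Apob and 0.058 for Apoh. Plain means of 3 pairs, added after seeing the data, were below 0 for Apoa2 (-0.17 without pair 1, -0.16 without pair 4), Apoc1 (-0.13 without pair 1) and Apoh (-0.044 without pair 1, -0.016 without pair 4). The other 8 genes kept their direction in all 17 fits with limma. Among the 17, Aquantile, a changed filter on dim probes, no dye term and a trended variance returned each member's reported ratio by design. The mean over probes could move only Apoa2 and Apob. Settings that cannot move a ratio do not show how steady it is. The test is paired as it stands, since each ratio is of a squalene pool over the Western pool on the same array.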
